A study of Rattus norvegicus with 32 samples.

Results

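The genes described here encode the initiation, elongation and release factors of cytoplasmic translation, the proteins that bring messenger RNA, initiator tRNA and ribosomal subunits together, carry the ribosome along the message and let the finished chain go. They were chosen by name from a list of 42 factors and not by measured values, and 40 of the 42 had a row among the 17216 genes counted. Levels of Eif2s3 and Eif4g1 were not analysed here, but both genes are in the counts of start windows and of pseudogenes. A row named Eif2s3x, which RefSeq's GRCr8 annotation lists as a synonym of Eif2s3, was kept apart from the 40 and is given separately.

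Dendrites and soma of 16 single wildtype Sprague Dawley rat hippocampal neurons, labelled pyramidal, were compared as 16 dendrite and 16 soma libraries of polyadenylated RNA. The neurons were taken at embryonic day 18 and had spent 15 days in culture when the dendrites and the soma of each cell were drawn into separate micropipettes. All libraries went through 3 rounds of antisense RNA amplification, a linear amplification by in vitro transcription. They belong to several cultures harvested over several days, with no source used here giving the culture of a neuron.

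Initiation begins when eIF4E binds the cap of a messenger RNA and the helicase eIF4A and the scaffold eIF4G join it, while eIF2 carries the initiator tRNA and eIF3 holds the small ribosomal subunit ready. The 4E-binding proteins compete with eIF4G for eIF4E, and this competition is a well-known point of control by the kinase mTOR. Elongation rests on eEF1A, which delivers charged tRNAs, and eEF2, which moves the ribosome along. Neurons carry ribosomes and many messenger RNAs into their dendrites, where local translation near synapses has been studied in relation to lasting synaptic change. Several messenger RNAs of elongation and initiation factors are known as TOP mRNAs: they start with a C followed by a run of pyrimidines (the 5′ terminal oligopyrimidine tract), through which mTOR signalling acts on their translation.

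The windows below show the start of 3 TOP members with such a run in the annotated window, of 2 TOP members without one, and of Eef1a2 and Eif4e, which are not TOP members. Each has 30 bases, 10 before and 20 from the annotated start of RefSeq's GRCr8 transcript, and capitals mark the longest run of a C followed by at least 5 pyrimidines, searched on the strand of the gene only.
Eef1a1, chr8:88225050-88225079, minus strand: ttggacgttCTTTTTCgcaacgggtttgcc
Eef1b2, chr9:72074081-72074110, plus strand: ggccggtcccggCCCTTTTTCTCCCTCagc
Eif3f, chr1:172369052-172369081, plus strand: cccttccgttctagCCTCTCTCTTTCTCgg
Eef1g, chr1:215289805-215289834, plus strand: ctgcggaatcaccatggcggctggggtaag
Eef2, chr7:9189219-9189248, minus strand: ccgcagccgccgccatcgtcggcgcgcttc
Eef1a2, chr3:188652614-188652643, minus strand: gggtacatctctgcagctgcgtCCTCTCgg
Eif4e, chr2:229740743-229740772, plus strand: ttgtgcgatcagatcgatctaagatggcga
Of the 10 members taken as TOP mRNAs from general knowledge, 5 had an annotated window and 3 of these 5 (60%) held a run. A run stood in 9 of the 33 windows of 31 other members (27.3%) and in 6797 of 33469 windows of all genes (20.3%). Annotated starts can lie some bases away from the start used in these neurons, so a window without a run says only that these letters are not in it. Eef1d, Eif3e, Eif3h, Eif4b, Pabpc1 and Eif4ebp1 had no entry.

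Dendrite libraries held between 229149 and 24439768 gene counts, and soma libraries between 878125 and 24721811. Both libraries of neuron 25 were the shallowest of their compartment. Levels below are CPM, the counts of a gene scaled to a fixed total of gene counts per library. They serve to compare libraries and not genes. Fold changes are given as log2, dendrites over soma, from edgeR's model with the neuron as a block. All 7 pan-neuronal markers sought were detected in both compartments, and the pyramidal marker Neurod6 had 10 or more counts in all 32 libraries. Of 8 pyramidal markers sought, 7 had a row, of which 7 reached 10 counts in some dendrite library and 6 in some soma library. Their summed level had a median of 1545 CPM in dendrites and 1637 CPM in soma. It was lowest in the dendrites of neuron 20, at 12.1 CPM, and in the soma of neuron 8, at 63.9 CPM. Gad1, a marker of inhibitory neurons, had 10 or more counts in 11 dendrite and 7 soma libraries and was highest in the soma of neuron 8, at 11161 CPM. The summed level of the inhibitory markers was also highest in that soma, at 13314 CPM. The summed level of 11 astrocyte markers was 50.1, 292 and 2131 CPM in dendrites and 17.2, 145 and 669.7 CPM in soma (lowest, median and highest), and higher in dendrites in 9 of 16 neurons; Slc1a2 was at 0 in soma. Of 6 microglia markers none had 10 counts in any library. The summed level of 6 endothelial and fibroblast markers was higher in dendrites in 13 of 16 neurons, with a median of 56.6 CPM in dendrites and 7.53 CPM in soma. The part of these other cells in the results below was not tested. The libraries share a neuron by their number, but the dendrites of neurons 7 and 9 each correlated best with the soma of the other.

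The translation factors were detected in dendrites as in soma, and no single factor passed the threshold between them in edgeR. All 40 members passed the filter on low counts, and 12 of the 40 (30.0%) had 10 or more counts in all 32 libraries, against 550 of the 4916 genes tested (11.2%). By edgeR's quasi-likelihood test with Benjamini-Hochberg adjustment, 0 of 40 members had an adjusted p under 0.05, each standing at 0.999, and 0 of 4916 genes did (0%). At an unadjusted p under 0.05 the same test gave 0 of 40 members, against 129 of all genes tested (2.62%). With DESeq2's Wald test 1 member passed, Eif4e, against 405 of 4916 genes (8.24%), of which 132 (2.69%) were lower in dendrites like Eif4e. limma-voom called 0 members and 0 genes (0%), with 2 members and 226 genes (4.6%) at an unadjusted p under 0.05. The exact sign-flip permutation test per gene also called 0 members and 0 genes (0%), with 4 members and 264 genes (5.37%) at an unadjusted p under 0.05. Without a filter on low counts edgeR called 0 members and 1 of 13879 genes (0.00721%), and without the neuron as a block 0 members and 0 genes, with 5 members and 336 genes (6.83%) at an unadjusted p under 0.05. The fold change was above 0 for 23 of 40 members (57.5%), against 2696 of 4916 genes (54.8%), with a median of 0.10 over the members and 0.13 over all genes tested.

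**Figure D1:**
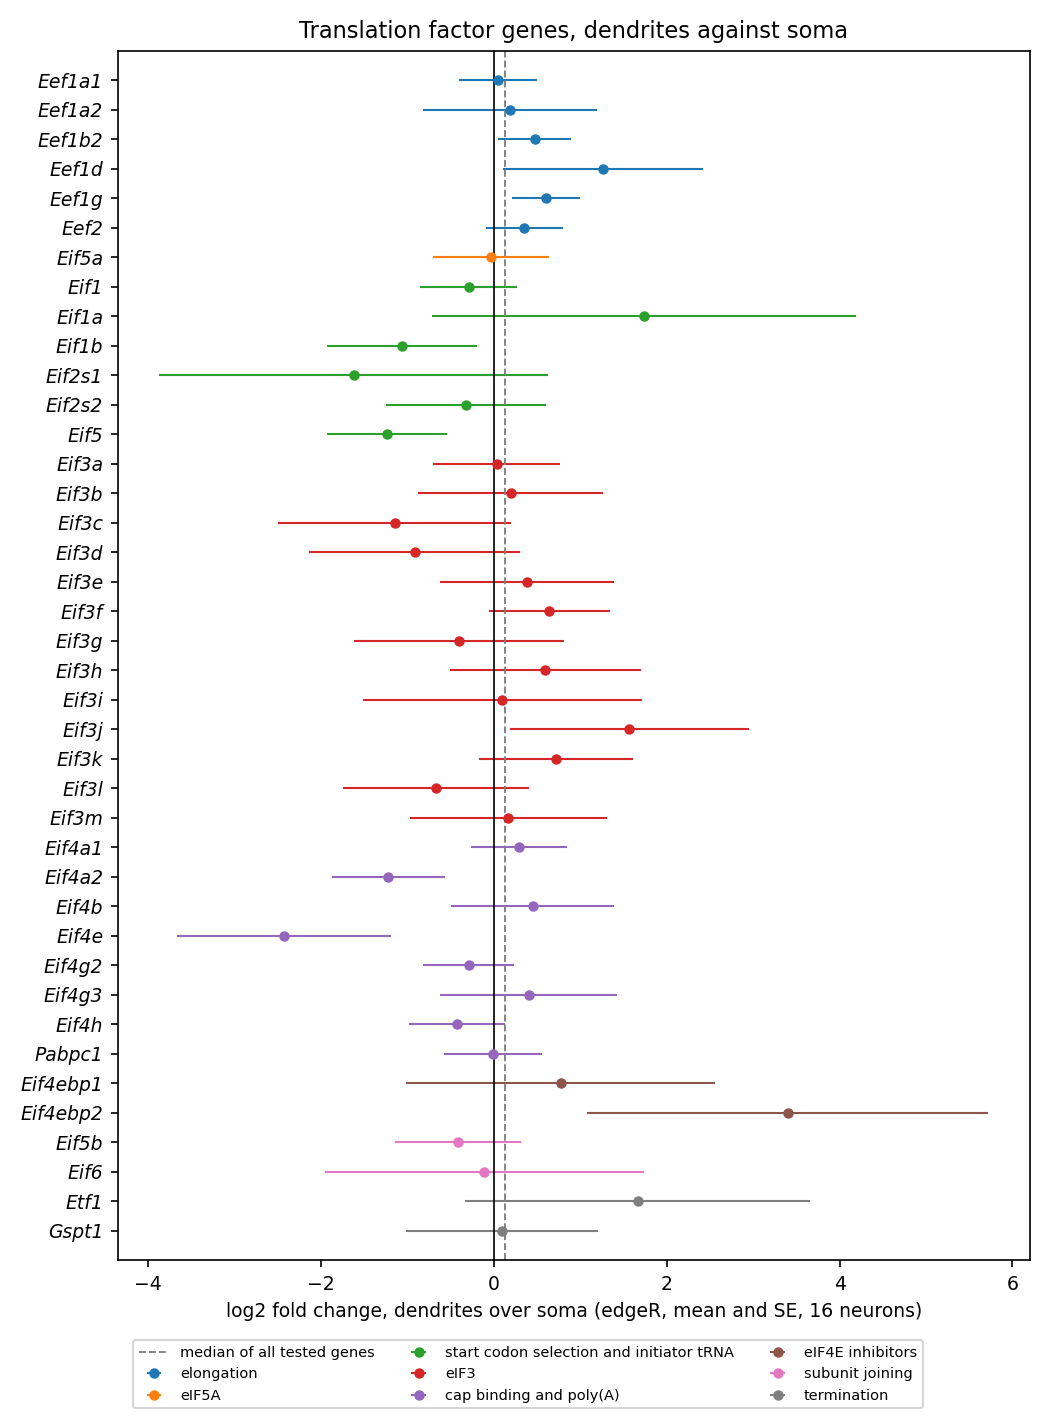
Log2 fold change of each of the 40 translation factor genes, dendrites over soma, with its SE (edgeR, 16 neurons), coloured by role. The dashed line marks the median of all 4916 genes tested. The 6 elongation factors lie right of 0, Eif4e lies lowest at -2.42 and Eif4ebp2 highest at 3.40, and no member passed the threshold.

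The 6 elongation factors all had fold changes above 0, between 0.05 for Eef1a1 and 1.27 for Eef1d, with a median of 0.41 (0.33 to 0.56 on leaving out 1 neuron at a time). Summed over the 6 genes, the level was 1609, 3724 and 11464 CPM in dendrites and 979.8, 2819.9 and 5118 CPM in soma (lowest, median and highest). The sum was higher in dendrites in 13 of 16 neurons, and the ranges overlapped. The median difference in log2 CPM over the 6 genes within a neuron was above 0 in 11 of 16 neurons, against 7 over all genes tested. None of the 6 passed the threshold. In a fit without the neuron as a block the median was 0.86, and Eef1g stood at 2.42 (p = 0.000354 before and 0.124 after adjustment, edgeR), Eef2 at 1.48 and Eef1a1 at 1.15. That fit ignores the pairing of libraries by neuron. The dendrites of neuron 20 were the highest library in Eef1g, Eef2 and Eef1a1, and their TMM factor of 0.159 sets them higher still in the fits. The part of this library in the unpaired values was not tested.

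Eef1g encodes the gamma subunit of the eEF1B complex, which reloads eEF1A with GTP. It had 306, 970 and 6761 CPM in dendrites and 138, 673 and 1153 CPM in soma. The dendrites of neuron 20 stood far above all other libraries, since the next dendrite library, of neuron 14, had 1580.2 CPM. Eef1g was higher in dendrites in 13 of 16 neurons, with a log2 fold change of 0.61 ± 0.39 (SE, p = 0.133 before adjustment, edgeR), and of 0.47 without neuron 20. Its partners in the complex, the exchange factors Eef1b2 and Eef1d, had log2 fold changes of 0.47 ± 0.43 and 1.27 ± 1.15 (SE), higher in dendrites by CPM in 11 of 16 neurons for Eef1b2 and in 10 for Eef1d. Eef1b2 was also among the steadier members, between 306 and 2878 CPM in dendrites and between 112 and 1909.9 CPM in soma. Eef1d ranged more widely, between 0.164 and 1034 CPM in dendrites and between 0 and 621 CPM in soma.

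Eef2, the translocase, had 232, 666 and 2476 CPM in dendrites and 166, 564 and 1096 CPM in soma, a log2 fold change of 0.35 ± 0.44 (SE). Eef1a1, the general form of the tRNA carrier, had 85.0, 415 and 1559.7 CPM in dendrites and 101, 354 and 1113 CPM in soma, a log2 fold change of 0.05 ± 0.45 (SE), and -0.08 without neuron 20. In both genes the compartments overlapped, with the dendrites of neuron 20 as the highest library. For Eef2, 4 dendrite libraries lay above every soma library and 3 soma libraries below every dendrite library. For Eef1a1, 1 dendrite library lay above and 1 below the whole soma range. Eef1a2, the form that replaces Eef1a1 in mature neurons and muscle, had 0.465, 8.64 and 88.2 CPM in dendrites and 1.09, 8.17 and 102 CPM in soma, a log2 fold change of 0.19 ± 1.01 (SE). Its medians in the compartments were nearly equal, and single neurons differed far more than compartments did. The log2 ratio of Eef1a2 to Eef1a1 within a library was -5.08 ± 2.16 in dendrites and -5.18 ± 1.70 in soma (SD, n = 16 each), a difference of 0.10 ± 2.52 (SD of 16 neurons; exact two-sided sign-flip permutation p = 0.870, also after adjustment over 6 ratios; 95% interval -1.24 to 1.45). The ratio of Eef2 to Eef1a1 differed by 0.31 ± 0.98 in log2 (SD, adjusted exact permutation p = 0.341, 95% interval -0.20 to 0.84).

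Eif5a encodes a factor that helps the ribosome past stretches such as those of proline. It had 3.72, 199.5 and 881 CPM in dendrites and 23.02, 232 and 421 CPM in soma, with a log2 fold change of -0.03 ± 0.67 (SE) and the dendrites of neuron 20 lowest of all.

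Of the 6 factors of start codon selection and initiator tRNA delivery, 5 had fold changes below 0 and 1 above, with a median of -0.69 (-0.88 to -0.52 on leaving out 1 neuron at a time). None passed the threshold, and Eif2s3x, the row kept apart, had a log2 fold change of -1.58 ± 0.85 (SE, p = 0.0755 before adjustment, edgeR). Eif2s3x had 0.0409, 187 and 878 CPM in dendrites and 16.9, 520 and 1742 CPM in soma, so its lowest library was a dendrite library and its highest a soma library.

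Eif5 encodes the factor that makes eIF2 split its GTP once the start codon is found. It had 7.47, 185 and 1117 CPM in dendrites and 68.9, 380 and 1075 CPM in soma, with more in dendrites in 4 of 16 neurons. The log2 fold change was -1.24 ± 0.69 (SE, p = 0.0850 before adjustment, edgeR), and the dendrite range spanned that of the soma. The other eIF2 subunits went with wide errors: Eif2s2, the beta subunit, had a log2 fold change of -0.32 ± 0.93 and Eif2s1, the alpha subunit and the target of the stress kinases, one of -1.62 ± 2.25 (SE). Eif2s1 had 0, 9.502 and 131 CPM in dendrites and 0, 5.29 and 477 CPM in soma, was at 0 counts in 5 dendrite and 3 soma libraries, and was thus lower in dendrites by its fold change while its median was higher there.

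Eif1 encodes the small factor that keeps scanning ribosomes from starting at a wrong codon, and Eif1b is its close paralog. Eif1 was the steadiest member: it had 139, 267 and 513 CPM in dendrites and 105, 373 and 863 CPM in soma. Its SD of log2 CPM over 16 libraries was 0.73 in dendrites and 1.004 in soma, and its log2 fold change was -0.29 ± 0.56 (SE). Eif1b had 0.0811, 390 and 6381 CPM in dendrites and 71.0, 592 and 4565 CPM in soma. Its lowest and highest libraries were both dendrites, those of neurons 14 and 20, and its SD was 3.79 in dendrites and 1.49 in soma. The log2 fold change of Eif1b was -1.06 ± 0.87 (SE), and it turned to 1.58 in a fit without the neuron as a block and to 0.13 with limma-voom. The log2 ratio of Eif1b to Eif1 differed by -1.003 ± 3.69 between dendrites and soma (SD of 16 neurons, adjusted exact sign-flip permutation p = 0.364, 95% interval -2.99 to 0.94). Eif1a, which encodes a form of eIF1A, had 0, 4.92 and 241 CPM in dendrites and 0, 5.27 and 208 CPM in soma, and was at 0 counts in 4 dendrite and 6 soma libraries. Its log2 fold change of 1.73 ± 2.45 (SE) has an error larger than itself.

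The 13 eIF3 subunits, which together form the largest initiation complex, lay on both sides of 0: 9 had fold changes above 0 and 4 below, with a median of 0.17. That median was between -0.13 without neuron 11 and 0.46 without neuron 14, so single neurons decided its sign. The summed level of the 13 genes was 544, 2275 and 3766 CPM in dendrites and 484, 1899 and 2928 CPM in soma, and higher in dendrites in 11 of 16 neurons. Yet the median difference in log2 CPM over the subunits within a neuron was above 0 in 7 of 16 neurons, and also in 7 over all genes tested. Genes with high CPM weigh most in the sum: in neuron 27 it was 3736 CPM in dendrites and 2928 CPM in soma, with Eif3m alone at 2590 and 258 CPM. The lowest sums belonged to the dendrites of neuron 14 and to the soma of neuron 20.

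The 2 subunits with the smallest unadjusted p were Eif3j and Eif3f. Eif3j, a loosely bound subunit, had 0, 119 and 446 CPM in dendrites and 0, 43.2 and 239.9 CPM in soma, with a log2 fold change of 1.57 ± 1.38 (SE, p = 0.265 before adjustment, edgeR). Eif3f, a TOP member, had 8.59, 226 and 827 CPM in dendrites and 11.4, 161 and 753 CPM in soma, with a log2 fold change of 0.64 ± 0.70 (SE). Both had a higher median in dendrites, and in both the compartments overlapped. At the other end stood Eif3c, a core subunit, with a log2 fold change of -1.14 ± 1.35, Eif3d, which can itself bind caps in human cells, with -0.91 ± 1.22, Eif3l with -0.67 ± 1.08 and Eif3g with -0.40 ± 1.22 (SE). The remaining 7 subunits lay between 0.03 for Eif3a, the largest subunit, and 0.72 for Eif3k. Eif3m showed how far 1 library can reach: its dendrite level was 2590.0 CPM in neuron 27 and 219 CPM in the next highest library, of neuron 18, against a dendrite median of 43.5 CPM and a soma median of 22.3 CPM.

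**Figure D2:**
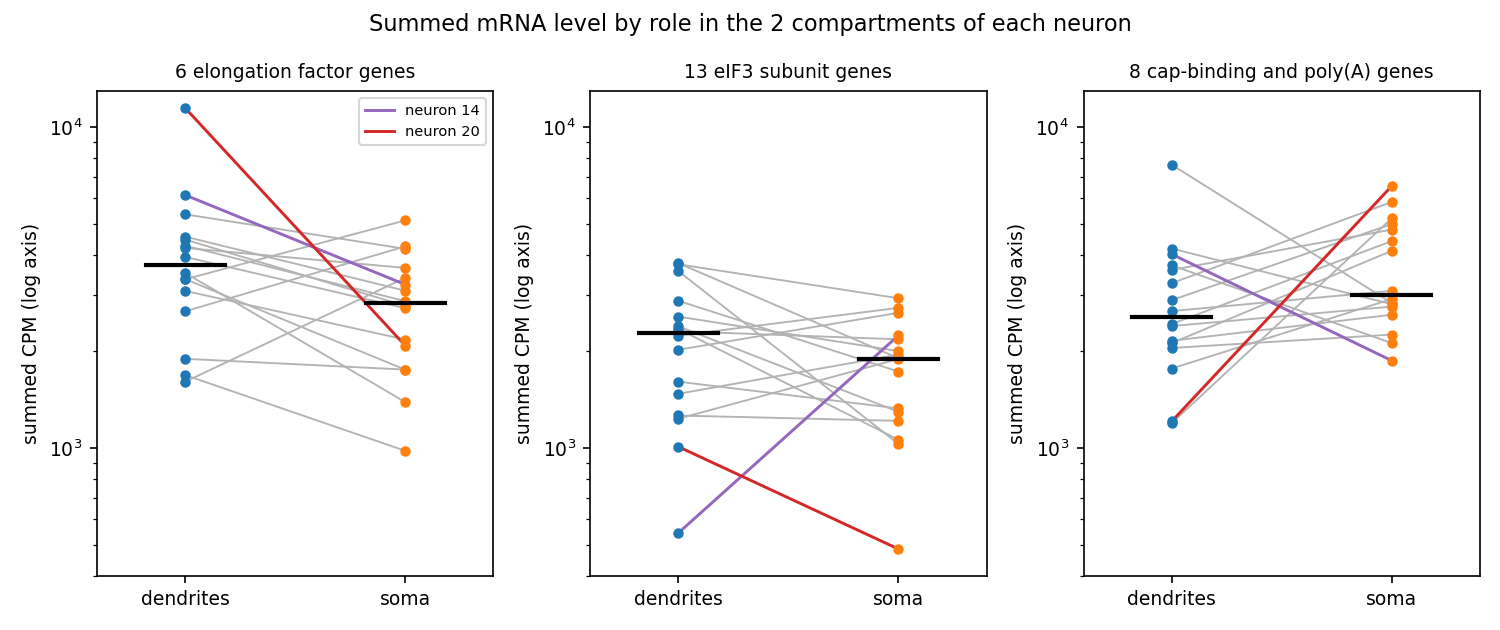
Summed level in CPM (log scale) of the 6 elongation factors, the 13 eIF3 subunits and the 8 factors of cap binding and the poly(A) tail in each library, with dendrites left of soma a line joining the libraries of 1 neuron (neuron 14 in purple, neuron 20 in red) and black bars at the medians. The sum of the elongation factors was higher in dendrites in 13 of 16 neurons, that of the eIF3 subunits in 11 and that of the cap-binding factors in 4. Sums weigh genes by their CPM and need not follow the single genes.

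The 8 factors of cap binding and the poly(A) tail had the opposite order in most neurons: their sum was 1195, 2551 and 7632 CPM in dendrites and 1871, 3000.3 and 6551 CPM in soma, with more in dendrites in 4 of 16 neurons. By gene, 3 had fold changes above 0 and 5 below, with a median of -0.15, and of -0.01 without neuron 20. None passed the threshold in edgeR. The sum weighs genes by their CPM, so it need not follow the count of genes. Its mean was 2955 CPM in dendrites and 3696 CPM in soma, of which Eif4a2 alone made up 964 and 1636 CPM.

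Eif4e encodes the cap-binding protein itself and had the lowest fold change of all 40 members. It had 0, 33.8 and 306 CPM in dendrites and 0.218, 204 and 818 CPM in soma, and was lower in dendrites in 13 of 16 neurons. The 3 neurons in which it was higher in dendrites were 18, 21 and 27, and every dendrite library lay within the range of the soma libraries except that of neuron 11, at 0.141 CPM, and that of neuron 14. In the dendrites of neuron 14 it had 0 counts, which allows up to 0.243 CPM by counting error alone. The log2 fold change was -2.42 ± 1.24 (SE), with an unadjusted p of 0.0610 and an adjusted p of 0.999 in edgeR, and it lay between -2.86 and -1.99 on leaving out 1 neuron at a time. DESeq2 gave -2.34 with an adjusted p of 0.0285. Over all the settings tried, the adjusted p of Eif4e ran from 0.0285 to 1, and DESeq2's was the only one under 0.05.

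Eif4a2 and Eif4a1 encode closely related forms of the helicase eIF4A, of which Eif4a2 is the form typical of brain. Eif4a2 had 0.324, 581 and 3374 CPM in dendrites and 215, 1343 and 4486 CPM in soma, and its log2 fold change was -1.22 ± 0.65 (SE, p = 0.0730 before adjustment, edgeR). It was lower in dendrites in 12 of 16 neurons by CPM, and the dendrites of neuron 14, with 4 counts, lay far below every other library. Eif4a1 had 60.3, 165 and 877 CPM in dendrites and 42.8, 154 and 607 CPM in soma, a log2 fold change of 0.29 ± 0.55 (SE), and had more CPM in dendrites in 8 of 16 neurons. The log2 ratio of Eif4a2 to Eif4a1 was 1.16 ± 2.79 in dendrites and 2.94 ± 1.63 in soma (SD, n = 16 each), with the dendrites above the soma in 4 neurons. The difference of -1.78 ± 3.42 had an exact two-sided sign-flip permutation p of 0.0534 and an adjusted p of 0.134 (95% interval -3.61 to 0.03). Without neuron 9 the difference was -2.21 with an adjusted exact permutation p of 0.0297, and over all the settings tried the adjusted p ran from 0.0297 to 0.420. Without neurons 14 and 20, a setting chosen after seeing the data, the difference was -0.91.

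Eif4g2, which encodes a shortened relative of eIF4G that does not bind eIF4E, was among the steadiest members. It had 12.8, 491 and 1374 CPM in dendrites and 130, 575 and 1061 CPM in soma, with a log2 fold change of -0.29 ± 0.53 (SE), and -0.04 without neuron 20, whose dendrites were the lowest library. Eif4g3, a full-length eIF4G, had a log2 fold change of 0.41 ± 1.02, and the helicase partners Eif4b and Eif4h had 0.45 ± 0.94 and -0.42 ± 0.55 (SE). Pabpc1 encodes the cytoplasmic poly(A)-binding protein, which joins the tail of a message to eIF4G. It had 47.3, 135 and 1291 CPM in dendrites and 35.7, 153 and 619 CPM in soma. Its log2 fold change of -0.01 ± 0.57 (SE) changed sign with the setting, for example to 0.06 with DESeq2 size factors, so no direction can be given for it.

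Eif4ebp2 encodes the 4E-binding protein most typical of brain and had the highest fold change of the members, against the lowest for its target Eif4e. Eif4ebp2 had 0, 58.7 and 1450.1 CPM in dendrites and 0, 0.0229 and 397 CPM in soma. It had 10 or more counts in 9 dendrite and 6 soma libraries and was at 0 counts in 4 dendrite and 8 soma libraries. By neuron, it reached 10 counts in both compartments in 3, in the dendrites alone in 6, in the soma alone in 3 and in neither in 4. The log2 fold change was 3.40 ± 2.32 (SE, p = 0.157 before adjustment, edgeR), between 2.32 and 4.86 on leaving out 1 neuron at a time. The dendrites of neuron 15 held the highest level, and the next, of neuron 13, had 265 CPM. Eif4ebp1, the paralog known best from other tissues, had 0, 1.68 and 140.4 CPM in dendrites and 0, 0.985 and 63.2 CPM in soma, with a log2 fold change of 0.77 ± 1.79 (SE). The log2 ratio of Eif4ebp2 to Eif4ebp1 differed by 2.38 ± 4.82 (SD of 16 neurons, adjusted exact sign-flip permutation p = 0.134, 95% interval -0.17 to 4.98).

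Neither Eif4ebp2 nor Eif4e passed the threshold alone in edgeR, with an adjusted p of 0.999 each. The low level of Eif4e in dendrites was known from earlier results of these data when their ratio was chosen, so the p given for it is not independent evidence of a difference. Within a library, the log2 ratio of Eif4ebp2 to Eif4e was -0.27 ± 4.19 in dendrites and -4.87 ± 3.23 in soma (SD, n = 16 each). The ratio ran from -7.39 to 9.76 in dendrites and from -9.68 to -0.14 in soma, so the compartments overlapped while the upper part of the range held dendrites alone. The difference of dendrites minus soma was 4.60 ± 5.45 (SD), and the ratio was higher in dendrites in 13 of 16 neurons. The exact two-sided sign-flip permutation p was 0.00162, and 0.00970 after adjustment over the 6 ratios (95% interval 1.80 to 7.53, by inverting the same test; the smallest p possible is 3.05e-05). Over all the settings tried, including each neuron left out, the adjusted p ran from 0.00256 to 0.0388. On the scale of log2(CPM + 1), Eif4ebp2 differed by 2.32 ± 4.05 and Eif4e by -2.28 ± 3.97 between dendrites and soma (SD). The exceptions were neurons 21, 23 and 27, where the ratio was lower in dendrites. Eif4ebp2 was at 0 counts in 4 dendrite and 8 soma libraries, where the ratio follows from Eif4e and the added 1 CPM alone. To that extent the ratio restates the level of Eif4e. In neuron 14 the dendrites held 0 counts of both genes, so that the ratio there is that of the added 1 CPM alone. Without neurons 14 and 20, a setting chosen after seeing the data, the difference was 4.25 with an adjusted exact permutation p of 0.0388.

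**Figure D3:**
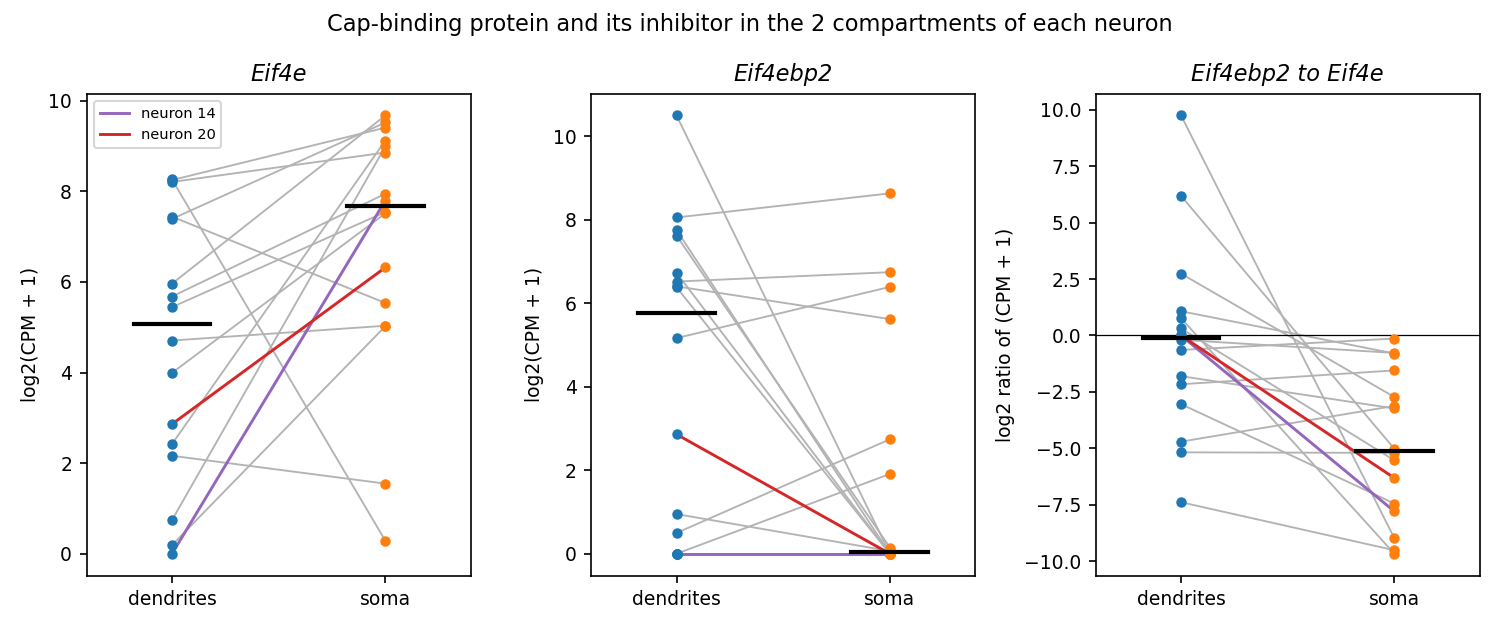
Levels of Eif4e and Eif4ebp2 (log2(CPM + 1)) and the log2 ratio of Eif4ebp2 to Eif4e in each library, with dendrites left of soma a line joining the libraries of 1 neuron (neuron 14 in purple, neuron 20 in red) and black bars at the medians. Eif4e was lower in dendrites in 13 of 16 neurons, Eif4ebp2 was higher in 8, lower in 5 and equal in 3, and the ratio was higher in dendrites in 13.

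Of the factors of subunit joining, Eif5b, the GTPase that brings in the large subunit, had a log2 fold change of -0.41 ± 0.73 and Eif6, which keeps free large subunits apart from small ones, had -0.11 ± 1.85 (SE). Eif5b had 11.9, 229.7 and 1715 CPM in dendrites and 2.92, 275 and 1353 CPM in soma, and its highest library was again the dendrites of neuron 20. Without the neuron as a block its fold change turned to 1.27. Of the release factors, Gspt1, which encodes the GTPase eRF3A, stayed between 0 and 16.4 CPM in dendrites and between 0 and 10.2 CPM in soma, with a log2 fold change of 0.10 ± 1.11 (SE). Etf1, which encodes eRF1, the protein that reads the stop codon, had 0, 15.2 and 200.2 CPM in dendrites and 0, 10.7 and 347 CPM in soma, with a log2 fold change of 1.66 ± 1.995 (SE), which turned to -0.54 without the neuron as a block and was 0.40 with limma-voom. Release factors reached 10 counts in both compartments in 16 of 32 pairs of gene and neuron (50%), near the 57.6% over all genes tested. For the elongation factors it was 91 of 96 (94.8%).

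Set by their message type, 9 of the 10 TOP members had fold changes above 0 and 1, Pabpc1, below, with a median of 0.46 (0.38 to 0.58 on leaving out 1 neuron at a time). The other 30 members had 14 above and 16 below 0, with a median of -0.07. The difference between these groups was not tested. The TOP members include 5 of the 6 elongation factors, so this count and that of the elongation factors share these 5 genes. Of the others among them, Eif3f had 0.64 ± 0.70, Eif3e 0.39 ± 1.01, Eif3h 0.60 ± 1.11 and Eif4b 0.45 ± 0.94 (log2 fold change ± SE). Of the TOP members with windows printed above, Eef1a1, Eef1b2 and Eif3f, which hold a run, had fold changes of 0.05, 0.47 and 0.64. Eef1g and Eef2, which hold none, had 0.61 and 0.35. Of the printed members that are not TOP, Eef1a2, which holds a run, had 0.19 and Eif4e, which holds none, had -2.42.

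Some libraries stood apart in the members. The dendrites of neuron 20 were the highest dendrite library in Eef1a1, Eef1g, Eef2, Eif1b, Eif4a1, Eif3h and Eif5b and the lowest in Eef1a2, Eif5a, Eif1, Eif3a, Eif3f, Eif4b, Eif4g2 and Eif4h. By CPM, 20 members were higher in these dendrites than in the soma of the same cell, 19 lower and 1 equal. The TMM factor of this library was 0.159, so the scaling of the fits set its members higher than CPM does: on that scale 25 were higher and 14 lower. There the summed CPM of the elongation factors over that of the eIF3 subunits, a ratio used here to compare libraries, was 11.4. The dendrites of neuron 14 had nearly the same ratio, 11.3, against a median of 1.38 over dendrites and 1.43 over soma, where the highest were 4.30 in neuron 20 and 4.13 in neuron 11. In neuron 14, 14 of 40 members were higher in dendrites by CPM and 25 lower, with Eif3d, Eif3k, Eif4e, Eif4ebp2 and Eif2s1 at 0 counts in its dendrites. These dendrites held 12332484 gene counts, so neuron 14 was not a shallow library, and those of neuron 20 held 4305333.

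**Figure D4:**
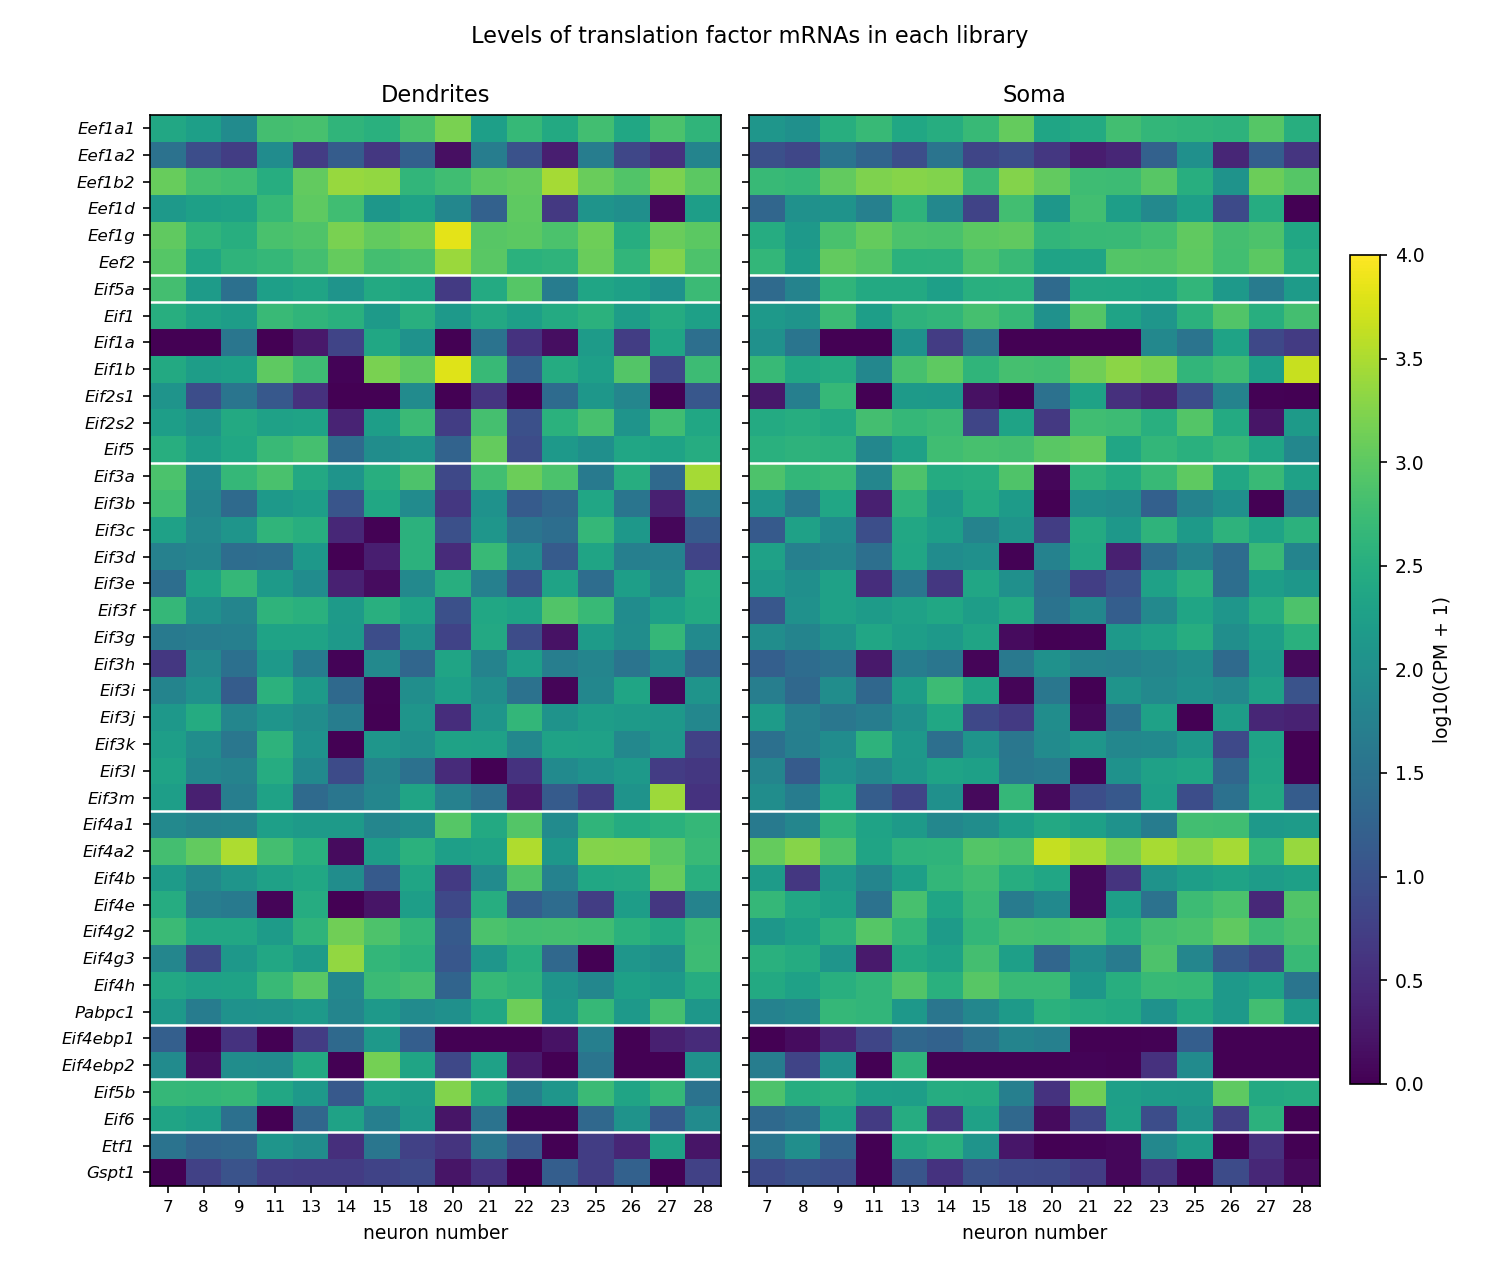
Level of each of the 40 members (rows, log10(CPM + 1), white lines between roles) in each library (columns), with the 16 dendrite libraries left of the 16 soma libraries and neurons in the same order. Colours compare libraries within a row and not genes. Eef1g, Eef2 and Eif1b stand out in the dendrites of neuron 20, and Eif4e, Eif4ebp2 and Eif4a2 are at or near 0 in those of neuron 14.

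Most members were detected in both compartments of a neuron. Of the 640 pairs of member and neuron, 522 (81.6%) had 10 or more counts in both compartments, 39 (6.09%) in the dendrites alone, 54 (8.44%) in the soma alone and 25 (3.91%) in neither. Over all genes tested these shares were 57.6%, 13.8%, 16.6% and 11.9%. At 5 counts or above, 36.3 ± 2.65 members were detected per dendrite library and 36.4 ± 3.32 per soma library (SD, n = 16 each). After thinning to 1071293 gene counts per library, in the 15 neurons deep enough, these were 34.4 ± 3.81 in dendrites and 33.9 ± 4.05 in soma (SD), a difference of 0.53 ± 5.46 (SD). At that depth the compartments differed by less than their neurons did. The median SD of log2 CPM over the members was 2.47 in dendrites and 2.58 in soma, against 3.22 and 3.46 over all genes tested. Members and other genes were not matched for level, and the part of level and detection in these SDs was not tested. The steadiest members were Eif1, Eif4g2 and Eef2, and the most variable were Eif4ebp2, Eif1a and Eif2s1.

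Of 44 further genes of translation and its control, 41 had a row and 31 passed the filter, with 15 fold changes above 0 and 16 below and a median of -0.10. None passed the threshold after adjustment in edgeR. An unadjusted p under 0.05 was found for 2 of 31 (6.45%), against 129 of all 4916 genes tested (2.62%). Eif2ak4, which encodes the eIF2 kinase that senses lack of amino acids, reached 10 counts in 2 dendrite and 11 soma libraries (log2 fold change -5.60 ± 2.05, SE, p = 0.0116 before adjustment, edgeR). Gspt2, the paralog of Gspt1, reached 10 counts in 5 dendrite and 11 soma libraries (-5.60 ± 2.41, SE, p = 0.0282 before adjustment, edgeR). Next in order of p came Eif2b1, a subunit of the exchange factor of eIF2, with a log2 fold change of 3.26 ± 2.04 (SE). The kinase Mtor was detected in 14 dendrite and 14 soma libraries at 10 counts and had a log2 fold change of -0.98 ± 1.25, and Tpt1, another TOP mRNA, had 0.50 ± 0.50 (SE) with 10 counts in all 32 libraries.

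Counts of several members carry an uncertainty of their own, since RefSeq's GRCr8 annotation names 120 pseudogenes after 32 of the 42 members. Eef1a1 has 20 of these, Eef1g 16, Eif4e 10, Eif5 9, and Eif1 and Eif4a1 8 each. No source used here says how reads that match a gene and its copies were counted, so levels of these genes are uncertain to that extent.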

How the data were processed

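For each library the authors deposited counts, whole numbers taken here as raw counts per gene, with 17216 genes and 92 spike-in rows, which stayed out of library sizes and tests. The genome build was rn6, per the submitters' processing notes. Which aligner, annotation and strand setting made the counts is not given in the sources used here. No molecular identifiers are named in the labels' protocols, so amplified reads are not independent molecules, and intervals and floors (3 counts for a count of 0) cover counting error only. 0 columns of per-sample values were left unused.

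Samples were grouped by the compartment in the labels and paired by the number in their titles, which the series text gives to the 2 samples of 1 cell. As a check, log2 CPM of the genes tested was centred in each compartment, and Spearman's correlation averaged 0.0678 between same-numbered libraries and -0.00054 between others. It was over 0.1 in 4 of 16 neurons. Dendrites matched their own soma best in 5 neurons. Those of neuron 7 were closest to soma 9 (0.165) and those of neuron 9 to soma 7 (0.259).

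The fit used edgeR 4.0.16 under R 4.3.3: filterByExpr by compartment (minimum count 10, 4916 genes), TMM, robust glmQLFit with the neuron as a block, glmQLFTest, and Benjamini-Hochberg adjustment over all genes tested with a threshold of 0.05. The SE of a log2 fold change is its size divided by the root of F. SDs of log2 CPM used a prior count of 2. Ratios used log2 with 1 CPM added to each gene and exact two-sided sign-flip permutation tests over 16 neurons; of 8 ratios planned, the 6 without Eif4g1 were computed, and their p-values adjusted over these 6. Alternatives were no replicate block, DESeq2 1.42.0, limma-voom (limma 3.58.1), other scalings and filters, other added values, thinned counts and neurons left out. The edgeR fit was also run on simulated counts. It called 5 of 80 genes (6.25%) simulated with a log2 fold change of 2 in either direction and 33 of 77 (42.9%) with 4. Of 4074 genes simulated without a change it called 0. So 0 calls do not show that the compartments are equal. Members whose values are given in full were 9 fixed genes, the 2 eIF3 subunits and the 6 members with the smallest unadjusted p, and the 3 with the smallest and the 3 with the largest SD. The members, lists, ratios and this rule were chosen with earlier results of these data known.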

Additional observations from a re-analysis of the deposited data

Results flagged for a closer look

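The ERCC spike-ins, synthetic RNAs that stayed outside the gene counts used above, made up a median of 0.482% of all counts over the 32 libraries, between 0.0605% and 4.33%; they were listed for a closer look because they are a signal in rows that no comparison above used, and no library without spike-ins was among those analysed here, so they were set against 0.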

How the results depend on the processing

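Depth limited what a count of 0 allows: the shallowest dendrite library held 229149 gene counts, where 0 counts allow up to 13.1 CPM. Fits leaving out 1 neuron at a time removed both its libraries. Counts of calls stayed at 0 under the other alternatives, with these exceptions: without a filter on low counts 1 of 13879 genes (0.00721%) was called, and DESeq2 called 405 genes and 1 member. Leaving out 1 neuron at a time gave 0 calls each time, among all genes and among the members.

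Without the replicate block, which ignores that 2 libraries come from 1 neuron, 0 genes were called (336 at an unadjusted p under 0.05, 6.83%), the median log2 fold change over the members was 0.32, against 0.10 with the pairing, and over all genes -0.07, against 0.13. In that fit 6 of 40 members changed direction: Eif1b to 1.58, Eif5b to 1.27, Etf1 to -0.54, Eif5a to 0.17, Pabpc1 to 0.15 and Eif3b to -0.08. The elongation factors kept theirs, with a median of 0.86 and 2.42 for Eef1g, 1.48 for Eef2 and 1.15 for Eef1a1. In Eef1g, Eef2 and Eef1a1 the dendrites of neuron 20 were the highest library. Eef1a1 was -0.13 without neurons 20 and 25. Pabpc1 was 0.0558 with DESeq2 size factors, 0.0559 with DESeq2's Wald test and 0.0623 without neurons 7, 8 and 9, and Eif1b was 0.13 with limma-voom. The ratio of Eef1a2 to Eef1a1 differed by -0.26 with counts thinned to one depth, a setting chosen after seeing the data. The cause of these reversals was not tested.

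With 1 neuron left out at a time, log2 fold changes ran from -0.0808 to 0.14 for Eef1a1, from -0.0560 to 0.43 for Eef1a2 and from -0.14 to 0.13 for Pabpc1, the difference of the ratio of Eef1a2 to Eef1a1 from -0.23 to 0.41, and that of Eif4a2 to Eif4a1 from -2.21 to -1.28. The difference of the ratio of Eif4ebp2 to Eif4e ran from 3.66 to 5.01, and was 5.02 and 3.56 with 0.5 and 5 CPM added, 4.53 with thinned counts and 4.60 without the pairing, with an adjusted permutation p under 0.05 each time. All these settings use the data in which the low level of Eif4e was known when the ratio was chosen, so they are not independent evidence.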
